A study of Mus musculus with 17 samples.

Results

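The cochlear transcriptome of noise-exposed mice that received brimonidine was compared with that of mice that were neither exposed nor treated with the drug. The comparison held 10 of the 17 libraries of the series, 7 from the brimonidine group and 3 from the control group, and its members were taken from the group names in the sample titles. All mice were male, wild-type C57BL/6J animals of 8 weeks. The brimonidine group was given 1 mg/kg brimonidine by intraperitoneal injection on the day before, on the day of and on the day after noise, and its noise began 0.5 h after the injection of that day. The noise was an 8 to 16 kHz band at 100 dB for 2 h, as the methods describe it, and the labels call the sound given to the NE group broadband. The labels place the injections before noise only. The control group had saline injections and no noise, and the NE group had the noise, with no injection named for it. RNA was taken on day 2, after hearing tests, from tissue that the methods call cochleae and, elsewhere, basilar membrane, and that the labels describe as cochlear cells of the interstitial type. The methods describe the hearing tests as done in each group, under xylazine and ketamine. No library from mice given brimonidine without noise was analysed here, so this contrast holds drug and noise together, and the NE libraries, with noise and no drug, are set beside it at the end. Each animal gave 1 library, and the labels name no litter, extraction day or sequencing run. The 3 controls are shown one by one throughout, since any group difference has to be read against their own spread.

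Brimonidine is an agonist of the alpha2-adrenergic receptors. These receptors couple to Gi proteins, which lower adenylyl cyclase activity and cyclic AMP and open inwardly rectifying potassium channels, and on nerve endings they reduce transmitter release. In the cochlea, inner hair cells release glutamate onto AMPA-type receptors of spiral ganglion neurons, supporting cells and glia take it up again, and loud sound damages these synapses. The cochlea sits in temporal bone next to marrow, muscle and the brainstem, and its nerve runs into the hindbrain, so a dissected sample can hold RNA of all these tissues.

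The control libraries differed from each other more than the brimonidine libraries did. Their sequencing depth, recovered from the steps of the deposited values, was 14457733, 15181390 and 16080796 fragments for controls 1, 2 and 3, against 16624437 to 18224926 in the brimonidine group. Control 2 stood apart from every other library, with a median correlation of 0.823 with the others over log2(FPKM + 1), where FPKM is a level scaled to transcript length and library depth. The corresponding value was 0.943 or higher in each of the other 9 libraries. The first principal component, which carried 60.9% of the variance, placed control 2 at 97.3, control 1 at 19.1 and control 3 at 23.7, and the brimonidine libraries between -27.9 and -1.87. Brimonidine 5 was the library of its group that lay nearest the controls. Sums of hindbrain markers followed this order for the controls and brimonidine 5. The 19 genes that mark cerebellar granule cells and other hindbrain neurons summed to 263, 703 and 276 FPKM in controls 1, 2 and 3. The brimonidine libraries held 26 to 94.2 FPKM of them, and the highest of these was brimonidine 5. The sum over 209 immunoglobulin variable genes was 13015, 1653 and 14514 FPKM in the controls and 11924 to 17052 in the brimonidine group. Here control 2 alone stood apart, below the brimonidine range, and controls 1 and 3 lay inside it.

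**Figure D1:**
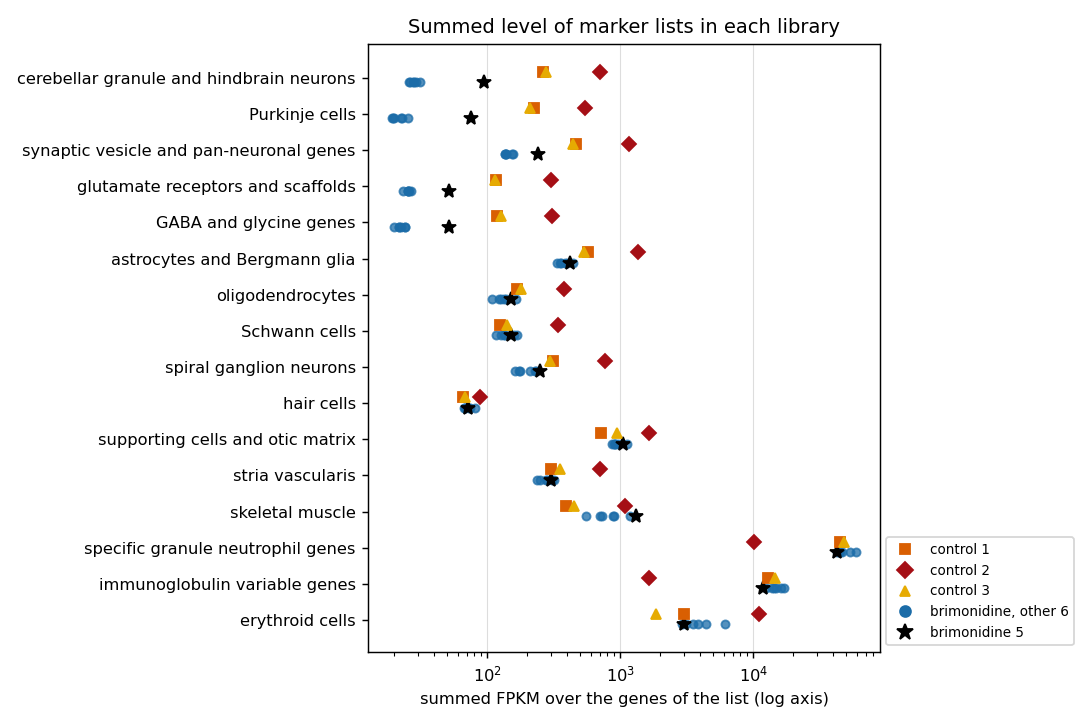
Summed FPKM (log axis) over the genes of 16 marker lists in each of the 10 libraries, with controls 1, 2 and 3 as separate symbols, brimonidine 5 as a star and the other 6 brimonidine libraries as circles. In the 6 lists from granule cells to astrocytes every control lies above every brimonidine library, while in the hair cell, supporting cell and stria lists controls 1 and 3 lie close to the brimonidine libraries and control 2 lies above them.

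Inner ear markers were present in both groups. Coch, the cochlin of the spiral ligament and limbus, was listed at 444, 1039.6 and 631 FPKM in controls 1, 2 and 3 and at 555 to 763 with a median of 582 in the brimonidine libraries. Otos, the otospiralin of fibrocytes, was at 33.2, 107 and 21.1 FPKM in the controls and 36.3 to 47.5 with a median of 43.7 in the brimonidine group. Hair cell genes were low. Myo7a, an unconventional myosin of the hair bundle, was at 4.98, 4.8 and 4.57 FPKM in the controls and between 4.97 and 6.21 in the brimonidine libraries. Otof, the otoferlin of hair cell exocytosis, was at 2.19, 6.06 and 1.96 FPKM in the controls and 2.4 to 3.08 with a median of 2.81 in the brimonidine group. Slc26a5, the prestin of outer hair cells, stayed under the filter described next, at 0.18, 0.858 and 0.324 FPKM in the controls and 0.146 to 0.834 in the brimonidine libraries.

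Genes at 1 FPKM or more in at least 3 of the 10 libraries were tested, which left 15947 of the 35285 genes in the table. A gene was called when limma with a variance trend gave a Benjamini-Hochberg adjusted p under 0.05 over all genes tested and the group means of log2(FPKM + 1) differed by at least 1, and the fold changes below are on that scale. The brimonidine group was higher for 27 genes, which is 0.169% of those tested, and lower for 886 genes, which is 5.56%. Of the 886 lower genes, 827 code for protein. The median log2 fold change of all genes tested was -0.03. All 7 brimonidine libraries lay below all 3 controls for 876 of the 886 lower genes, and above them for 13 of the 27 higher genes. Over all genes tested, 14.3% lay wholly below and 5.07% wholly above. By the adjusted p alone, 1965 genes or 12.3% were lower and 553 or 3.47% were higher.

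The calls leaned on control 2. It was the highest control for 873 of the 886 lower genes and the lowest control for 19 of the 27 higher genes, and brimonidine 5 was the highest library of its own group for 791 of the lower genes. When the fit was repeated without control 2, 450 genes were lower and 18 higher, or 2.90% and 0.116% of the genes tested. Of the 886 lower genes, 705 could still be tested and 442 were called again. Of the same 886, 180 reached 1 FPKM in the 3 controls alone, so that leaving out any control took them below the filter. Of the 27 higher genes, 5 were called again, namely Iglj3p, Hspb7, Gm22362, Snora41 and Myh2, and 13 genes entered that had not been called with all libraries. Without control 2 and brimonidine 5 together, 325 genes were lower and 18 higher. In that setting 527 of the 886 lower genes still passed the filter and 318 were called again. Of the 27 higher genes, 4 were called again.

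Some named genes carry a limit of this sort. Of the lower genes named below, 10 entered the test through the controls alone, so they had to be higher there, and their values are a description. They are Barhl2, Epha8, Gls2, Kcnj3, Lhx1, Mir3093, Npas4, Nr4a3, Prox1 and Th. The neural, inner ear and signaling lists below held 1 to 3 such genes each where they held any, and the granule cell and neuronal channel lists held 3. Several other lower genes reached 1 FPKM in no brimonidine library but brimonidine 5. Examples are Cbln3, Gabra6, Neurod1, Grm4, Nptx1, Cnpy1, Rnf112, Jph4, Car4 and Lhx1os. They too passed the filter through the controls, and their values are a description as well. A further 31 of the called genes named here or in the closing observations could be tested without control 2 and were then not called. The lower ones among them are Vamp2, Gnai1, Ntrk2, Thy1, Tubb3, Atp1b2, Olig1, Mobp, Fam107a, Mirlet7a-1, Odf3b, Nme9 and 1700016K19Rik, and the others are higher genes.

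**Figure D2:**
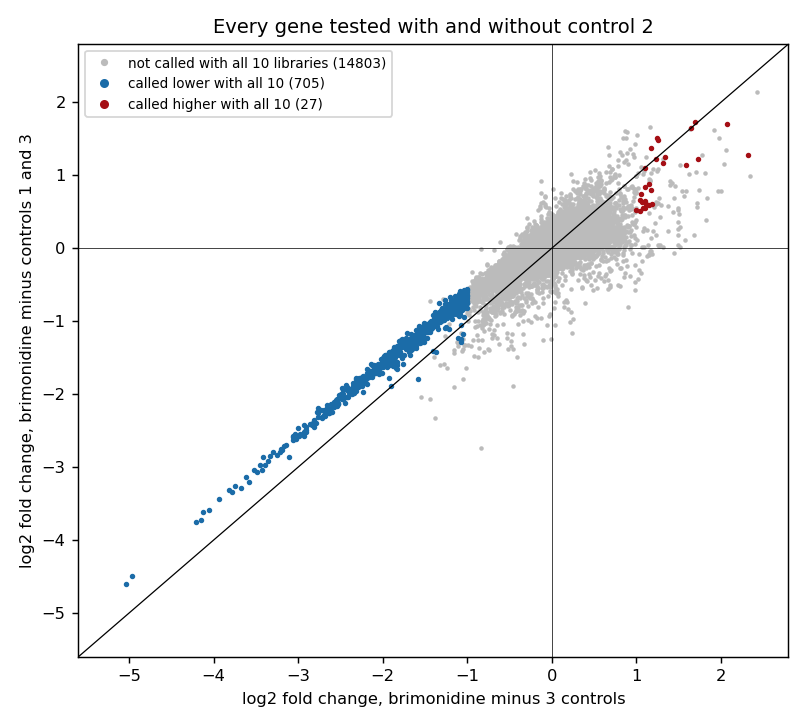
Log2 fold change of each gene that could be tested both with all 10 libraries (horizontal axis) and without control 2 (vertical axis), as brimonidine minus control on log2(FPKM + 1), with the diagonal marking equal values. Of the 705 lower genes, 698 lie above the diagonal and all lie below 0, and 20 of the 27 higher genes lie below the diagonal.

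Against single controls, the mean of the 7 brimonidine libraries was set beside each control library, with no test, since 1 library has no replicate. All 886 lower genes were below each of the 3 controls, and all 27 higher genes were above each of them. These genes were called on their difference from the same 3 controls. The counts in this paragraph therefore describe the called genes and give no support to the calls. The median difference of the lower genes was -1.17 from control 1, -2.28 from control 2 and -1.18 from control 3. A difference of at least 1 was reached by 544 of them against control 1, 882 against control 2, 577 against control 3 and 496 against every control. The higher genes had median differences of 1.01, 1.92 and 0.94 from controls 1, 2 and 3, and 14, 24 and 12 of them passed the fold, with 7 doing so against every control. Controls 1 and 3 therefore gave near-equal distances, and control 2 gave the longest. Over all genes tested the medians were 0.0013, -0.12 and -0.025 in the same order.

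**Figure D3:**
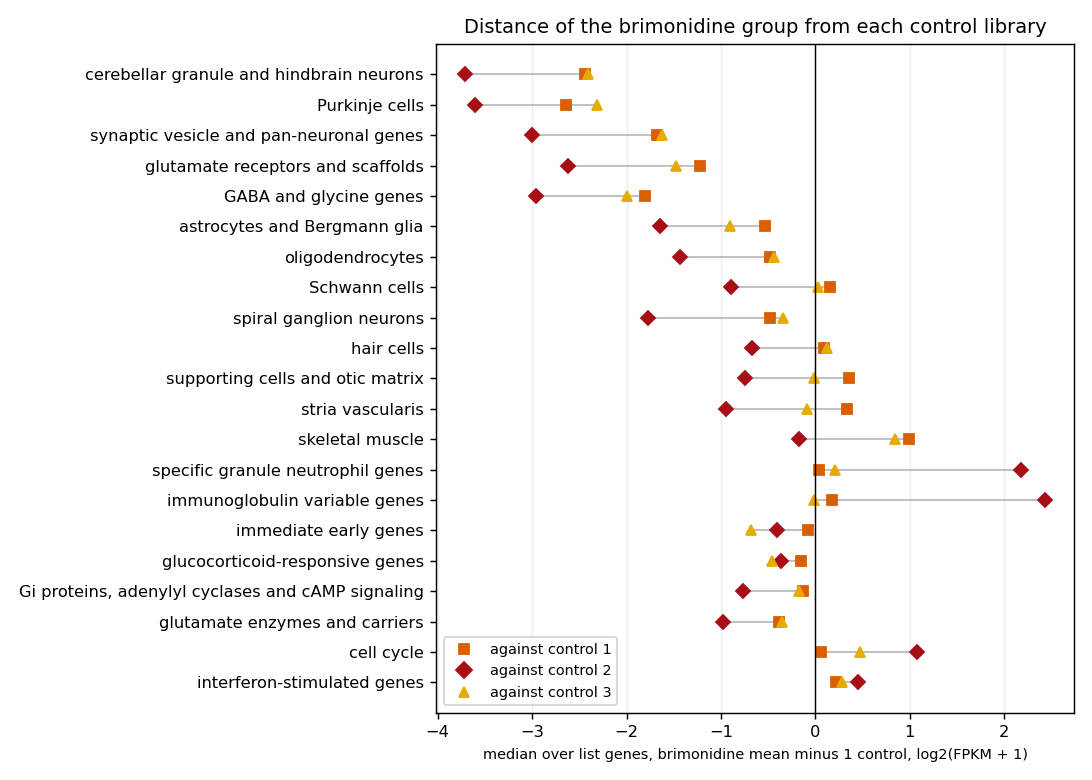
Median, over the tested genes of each list, of the brimonidine mean minus 1 control library on log2(FPKM + 1), with 1 symbol for each control. Granule cell, Purkinje, synaptic, glutamate receptor and GABA lists lie below -1 against every control, whereas the neutrophil and immunoglobulin lists are far above 0 against control 2 and near 0 against controls 1 and 3.

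Genes of cerebellar granule cells were lower as a group. Of the granule cell and hindbrain list, 18 genes were tested and 17 were called lower, with a median log2 fold change of -2.88, against -0.03 over all genes. In a bulk library a lower level can come from fewer cells of a type or from less RNA in each cell, and these cannot be told apart. Cbln3, a secreted partner of the synapse organizer Cbln1 in granule cells (chr14:55878920-55884256, mm10), was at 39.1, 104 and 44.9 FPKM in controls 1, 2 and 3 and at 0.106 to 11.8 with a median of 0.267 in the brimonidine libraries. The difference on the log2 scale was -5.04 ± 0.70 (SE, adjusted p = 0.0013, limma). Brimonidine 5 alone made the upper end of the brimonidine range, yet it too stayed under the lowest control. Gabra6, the GABA-A receptor subunit that marks granule cells, was at 31.5, 93.4 and 36.9 FPKM in the controls and 0 to 8.81 with a median of 0.187 in the brimonidine group. Neurod1, a transcription factor of granule cells and of developing spiral ganglion neurons, was at 16.7, 46.7 and 18.1 FPKM in the controls and 0 to 3.92 with a median of 0.122 in the brimonidine group, with a difference of -4.21 ± 0.49. Cbln3, Gabra6 and Neurod1 passed the filter through the controls and brimonidine 5, so their calls are a description. Control 2 was the highest library for all 18 genes, brimonidine 5 was the highest of its group for 17, and none of the 18 overlapped between the groups. Cbln1 fell by 4.05, Grm4, a presynaptic metabotropic glutamate receptor, by 3.94, and the hindbrain factors Zic1 and En2 by 3.04 and 2.97 on the log2 scale. Without control 2, 15 of the genes could be tested, 13 were called and the median was -2.55.

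All 10 Purkinje cell genes tested were called lower, with a median of -2.80 and, without control 2, -3.01 over 8 genes, of which 7 were called. Aldoc, the brain aldolase carried by a subset of Purkinje cells and by astrocytes, was at 111, 238 and 101 FPKM in the controls and 6.84 to 30.2 with a median of 9.42 in the brimonidine group. Calb1, a calcium buffer of Purkinje cells, was at 24.8, 62.6 and 23.7 FPKM in the controls and 0.527 to 9.71 with a median of 1.03 in the brimonidine group, a difference of -3.78 ± 0.54 (adjusted p = 0.0015, limma). Both genes kept the brimonidine libraries below every control. Car8, a regulator of the inositol trisphosphate receptor, fell by 4.13, and that receptor, Itpr1, fell by 1.82. Pcp2, at 4.31, 8.76 and 2.08 FPKM in the controls, was at a median of 0.0955 in the brimonidine group.

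Further lower genes were named for the smallest p or the largest distance from the nearest control. Tagln3, a neuronal transgelin, was at 33.6, 69.8 and 32 FPKM in the controls and 3.81 to 9.71 with a median of 4.08 in the brimonidine group. C1qtnf4, a secreted C1q-related protein, was at 11.5, 22.9 and 11.1 FPKM in the controls and 1.26 to 2.55 with a median of 1.74 in the brimonidine group, and here brimonidine 5 was not the highest library. Rasgef1a, an exchange factor for small GTPases, fell by 1.88, the ephrin receptor Epha8 by 2.14 and the junctophilin Jph4 by 2.91. Car4, a membrane carbonic anhydrase, fell by 3.41, and Rnf112, a RING finger protein of neurons, and Nptx1, a pentraxin of synapses, fell by 4.15 and 3.82. Cnpy1, which is active at the border of midbrain and hindbrain, fell by 3.68. Barhl2, a homeobox factor of hindbrain neurons, was at 3.95, 8 and 3.76 FPKM in the controls and at or under 0.535 in each brimonidine library. Barhl2, Epha8 and Lhx1 reached 1 FPKM in the controls alone. Lhx1os, which lies on the opposite strand beside Lhx1, fell by 3.11 while Lhx1 fell by 2.18, and whether the counting used strand is not given in the sources used here.

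Presynaptic and other pan-neuronal genes were lower as a group. Of 30 tested, 27 were called lower, and the median was -2.06. Snap25, the membrane SNARE of vesicle fusion, was at 51.3, 141 and 52.4 FPKM in controls 1, 2 and 3 and at 8.68 to 24 with a median of 10.2 in the brimonidine libraries, a difference of -2.56 ± 0.35 (adjusted p = 0.00128, limma). Vamp2, the vesicle SNARE, was at 53.6, 91.4 and 50.4 FPKM in the controls and 26.4 to 34.5 with a median of 27.3 in the brimonidine group. Neither gene overlapped between the groups, but the distance was shorter for Vamp2, at -1.12 ± 0.16. Gap43, a growth cone protein, fell by 2.92, the complexins Cplx2 and Cplx1 by 2.66 and 1.56, the vesicle protein Syp by 2.14, and the neuronal splicing factor Rbfox3 by 2.93. Dnm1, which acts in vesicle retrieval, fell by 2.13. Without control 2, 22 of 28 genes were called and the median was -1.68. The list summed to 465, 1155 and 441 FPKM in the controls and 137 to 242 in the brimonidine group. The part that cerebellar and hindbrain RNA had in the levels of neuronal genes was not tested.

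**Figure D4:**
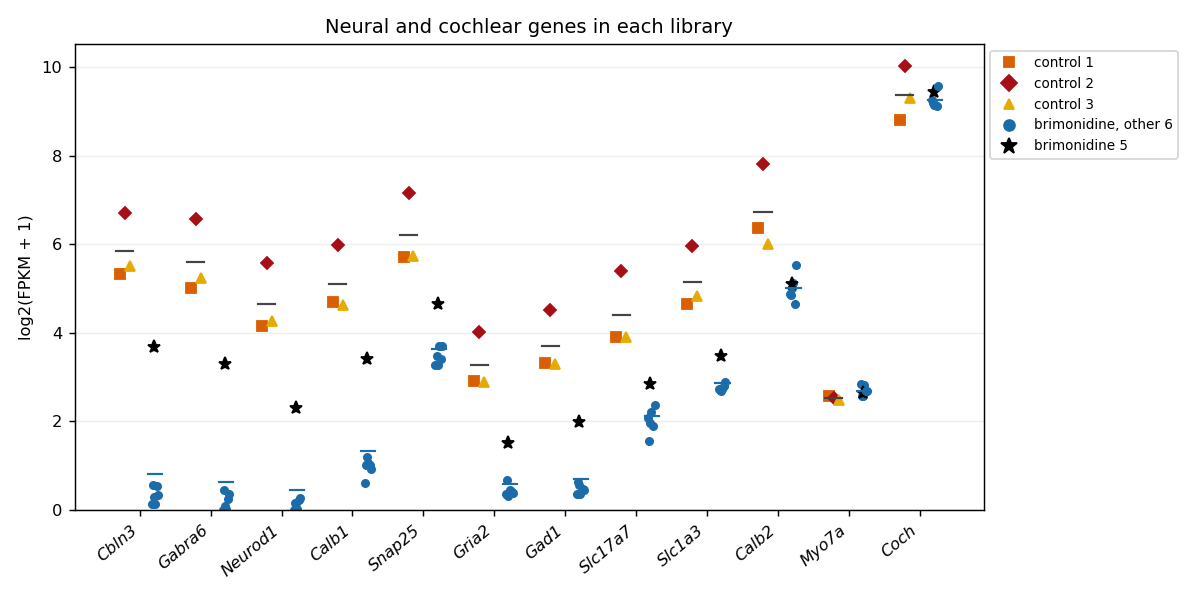
Log2(FPKM + 1) of 12 neural and inner ear genes in each library, with controls 1, 2 and 3 as separate symbols, brimonidine 5 as a star, the other brimonidine libraries as circles and short horizontal lines at the group means. From Cbln3 to Calb2 the groups do not overlap, and brimonidine 5 lies between the other brimonidine libraries and the controls in most of them, while in Myo7a and Coch the brimonidine libraries lie around the level of controls 1 and 3.

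Receptors for fast transmitters were lower too. Among glutamate receptors and their scaffolds, 14 of 17 genes tested were called lower, with a median of -1.75. Gria2, the AMPA receptor subunit that limits calcium entry, was at 6.49, 15.3 and 6.39 FPKM in the controls and 0.247 to 1.86 with a median of 0.333 in the brimonidine group, a log2 fold change of -2.68 ± 0.30. Gria4 and Gria1 fell by 3.06 and 3.49, and Grin2c, the NMDA receptor subunit of mature granule cells, by 3.75. The postsynaptic scaffold Dlg4 fell by 1.57, and Gria3, Grik5 and Homer1 were the 3 that were not called, at -0.22, -0.80 and -0.28, or -0.11, -0.51 and -0.15 without control 2. On the inhibitory side, 10 of 13 GABA and glycine genes were called lower, with a median of -2.18. Gad1, which makes GABA, was at 9.04, 22 and 8.76 FPKM in the controls and 0.276 to 2.99 with a median of 0.396 in the brimonidine group. The receptor subunit Gabrd fell by 3.52 and the vesicular carrier Slc32a1 by 2.14. Of the voltage-gated channels of neurons, 18 of 21 were called lower, among them the sodium channel Scn2a by 2.48 and the P/Q calcium channel Cacna1a by 2.53. Without control 2, 10, 9 and 14 genes of these 3 lists were called, of 15, 12 and 18 tested, with medians of -1.31, -1.88 and -1.25.

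Glial lists gave different counts, and the differences between them were not tested. Of 12 astrocyte and Bergmann glia genes, 5 were called lower, with a median of -0.95. Hepacam, an adhesion protein of astrocytes, was at 6.22, 12.3 and 5.48 FPKM in the controls and 0.713 to 2.18 with a median of 1.23 in the brimonidine group, a log2 fold change of -1.95 ± 0.23, and Atp1b2, a sodium pump subunit, fell by 1.39. Without control 2 the difference of Atp1b2 was -0.87 and missed the fold. Gjb6 and S100b, which inner ear cells also express, had log2 fold changes of -0.35 and -0.35 with adjusted p of 0.324 and 0.438 (limma), and of 0.10 and 0.18 without control 2, when the list median was -0.71 and 4 genes were called. Of 12 oligodendrocyte genes, 4 were called lower, Mog, Olig1 and Mobp among them, and 1 was called without control 2. Limma called 0 of the 13 Schwann cell genes, and 2 had an unadjusted p under 0.05, against 35.6% of all genes tested. Limma-voom, a weighted model run here on fragments recovered from the FPKM, called 0. The median was -0.27. Against controls 1, 2 and 3 the Schwann list had medians of 0.15, -0.89 and 0.02, and without control 2 the median was 0.07.

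Spiral ganglion neuron genes split. Of 19 tested, 7 were called lower, with a median of -0.77, and without control 2 the called genes were 2 of 17 and the median was -0.22. Calb2, a calcium buffer of type I neurons and of granule cells, was at 81.9, 225 and 63.2 FPKM in the controls and 24.2 to 45.1 with a median of 31.1 in the brimonidine group, a difference of -1.71 ± 0.33 (adjusted p = 0.00583, limma). Tubb3, the neuronal tubulin, was at 20.2, 53.8 and 20.1 FPKM in the controls and 7.04 to 14.6 with a median of 10 in the brimonidine group. For both genes every brimonidine library lay below every control, and without control 2 the difference of Tubb3 was -0.91 and missed the fold. Th, Thy1 and Prox1 fell by 1.41, 1.15 and 1.16. Pvalb, a calcium buffer of the ganglion, of Purkinje cells and of muscle, was at 103, 257 and 111 FPKM in the controls and 52.3 to 105 with a median of 65.5 in the brimonidine group, and its difference of -0.98 missed the fold, as did -0.56 without control 2. Nefh, the heavy neurofilament, had a difference of -0.77 ± 0.33 (adjusted p = 0.123, limma), or -0.22 without control 2, and overlapped between the groups. The neurotrophin receptors Ntrk2 and Ntrk3, which carry BDNF and NT-3 signals to these neurons, were called lower at -1.30 ± 0.24 and -1.44 ± 0.27. They are 2 of the 5 genes tested in the neurotrophin list, and the other 3 were not called. Without control 2 the difference of Ntrk2 was -0.93 and missed the fold, Ntrk3 was called at -1.05, and the list median went from -0.21 to -0.05. Their ligands Bdnf and Ntf3 did not pass the filter.

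Hair cell genes gave 0 calls by limma and 1 by limma-voom among 14 tested. Their median was -0.12, which turned to 0.09 over 12 genes without control 2. An unadjusted p under 0.05 was found for 2 of them, against 35.6% of all genes tested. Both of these genes also had an adjusted p under 0.05 in limma, 1 with a positive and 1 with a negative difference. The positive one was Gfi1, at 0.78 ± 0.19, or 0.44 without control 2. Gfi1, which neutrophil precursors also express, was at 17.1, 7.79 and 16.2 FPKM in the controls and 19.8 to 25.7 with a median of 23.8 in the brimonidine group. Among 16 supporting cell and otic matrix genes, Prox1 was the 1 called lower, and among 13 stria vascularis genes Atp1b2 was the 1 called lower. Over all genes tested, 5.56% were called lower. Without control 2 no gene of these 2 lists was called lower, as Atp1b2 missed the fold and Prox1 was below the filter. Both genes are also expressed in brain. The medians of these lists were -0.12 and -0.23 with all controls and 0.18 and 0.13 without control 2. Kcnq1 and Kcne1, the channel that secretes potassium into endolymph, had log2 fold changes of -0.17 ± 0.21 and -0.25 ± 0.25, which turned to 0.17 and 0.20 without control 2. Gjb2, the connexin of the supporting cell network, was at 49.5, 172 and 73.5 FPKM in the controls and 59.4 to 77.3 with a median of 69.5 in the brimonidine group, so that control 2 lay above the brimonidine range, control 1 below it and control 3 inside it. Slc26a4, the anion exchanger pendrin, was at 7.99, 21.2 and 13.3 FPKM in the controls and 10.3 to 16.4 with a median of 14.2 in the brimonidine group.

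Genes that make, carry and clear glutamate were of interest because the drug was studied for its effect on glutamate. Of 18 tested, 5 were called lower and 13 were not, and the median was -0.55. Without control 2, 4 of 17 were called and the median was -0.31. Slc17a7, the vesicular carrier VGLUT1 of granule cells and auditory nerve, was at 14.1, 41.5 and 14 FPKM in controls 1, 2 and 3 and at 1.95 to 6.14 with a median of 3.21 in the brimonidine group, a difference of -2.28 ± 0.34 (adjusted p = 0.00167, limma). Slc17a6, which encodes VGLUT2, was at 1.99, 3.66 and 1.7 FPKM in the controls and 0.701 to 1.73 with a median of 1.05 in the brimonidine group, and its difference of -0.70 ± 0.19 missed the fold at an adjusted p of 0.0351 (limma), and without control 2 it was -0.46 at an adjusted p of 0.141. Slc17a8, the VGLUT3 of inner hair cells, was too low to be tested, at 0.41, 1.13 and 0.382 FPKM in the controls and 0.573 to 0.776 in the brimonidine group, where control 2 was the highest library and controls 1 and 3 were the lowest. The plasma membrane transporters of astrocytes and Bergmann glia fell, Slc1a3 or EAAT1 by 2.29 and Slc1a2 or EAAT2 by 2.16, and so did the Purkinje transporter Slc1a6, by 3.45. Slc1a3 was at 24, 61.7 and 27.7 FPKM in the controls and 5.41 to 10.1 with a median of 5.7 in the brimonidine group.

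Gls2, a glutaminase, which turns glutamine into glutamate, was at 2.07, 4.66 and 1.25 FPKM in the controls, reached 0.955 at most in the brimonidine group and was called lower at -1.16 ± 0.24. It passed the filter through the 3 controls alone, so this call is a description. Glul, the glutamine synthetase of glia and supporting cells, was at 108, 199 and 117 FPKM in the controls and 103 to 132 with a median of 117 in the brimonidine group. Controls 1 and 3 lay inside that range, and the difference was -0.22 ± 0.17 (adjusted p = 0.354, limma). Glud1 and Got1, enzymes that link glutamate to the citric acid cycle, had log2 fold changes of 0.12 and -0.59. The values of Glul, Glud1 and Got1 without control 2 were 0.05, 0.06 and -0.28.

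The drug's own receptors were low in these libraries. Adra2a was at 2.09, 4.9 and 2.57 FPKM in controls 1, 2 and 3 and at 1.95 to 2.96 with a median of 2.5 in the brimonidine group, with a difference of -0.24 ± 0.18 (adjusted p = 0.361, limma; two-sided exact permutation p = 0.283 over 120 splits, the smallest that the design allows being 0.00833). The brimonidine mean of Adra2a differed by 0.14, -0.79 and -0.06 from controls 1, 2 and 3, so that it lay above control 1 and below the others, and without control 2 the difference was 0.04. Adra2c did not pass the filter, at 0.743, 2.73 and 0.614 FPKM in the controls and 0.451 to 0.664 in the brimonidine group. Adra2b did not pass it either, at 0.19, 0.361 and 0.0775 FPKM in the controls and 0.0138 to 0.0701 in the brimonidine group. For both receptors control 2 was the highest of the 10 libraries.

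Of 28 tested genes for Gi proteins, adenylyl cyclases and other parts of cyclic AMP signaling, 6 were called lower, with a median of -0.37. Adcy1, the calcium-stimulated cyclase of neurons, was at 16.6, 50.6 and 18.9 FPKM in the controls and 0.903 to 5.24 with a median of 1.4 in the brimonidine group, a difference of -3.33 ± 0.39 (adjusted p = 0.00111, limma). Gnao1 and Gnai1, the alpha subunits of Go and Gi1, fell by 2.02 and 1.31, the neuronal kinase subunit Prkar1b by 1.94 and the potassium channels Kcnj9 and Kcnj3 by 2.52 and 1.62. The other 22 were not called. Among them the cyclases Adcy2 and Adcy5 had log2 fold changes of -0.65 and -0.61, with adjusted p of 0.0305 and 0.0402 in limma, and missed the fold. Gnai2, the Gi subunit of blood cells among others, was at 258, 126 and 225 FPKM in the controls and 250.5 to 298 with a median of 258 in the brimonidine group, and Gnai3 and the kinase subunit Prkaca had log2 fold changes of 0.34 and -0.51. Without control 2 the values of Adcy2, Adcy5, Gnai3 and Prkaca were -0.41, -0.32, 0.05 and -0.30, none with an adjusted p under 0.05 in limma, 4 of 27 genes were called and the median was -0.11.

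Immediate early genes, which are switched on within minutes of calcium and cyclic AMP signals, held another set of lower genes. Of 21 tested, 6 were called lower and 15 were not called, and the median was -0.18. Nr4a2, an orphan nuclear receptor, was at 4.87, 18.6 and 7.15 FPKM in the controls and 1.24 to 1.96 with a median of 1.52 in the brimonidine group, a difference of -1.98 ± 0.29 (adjusted p = 0.00153, limma). Fos (chr12:85473890-85477273, mm10), a subunit of the AP-1 factor, was at 17.1, 45.8 and 24.2 FPKM in the controls and 6.59 to 10.9 with a median of 8.66 in the brimonidine group, a log2 fold change of -1.51 ± 0.24. Nr4a1, a receptor of the same family, was at 16, 51.4 and 30 FPKM in the controls and 6.65 to 11.9 with a median of 8.56 in the brimonidine group, a log2 fold change of -1.61 ± 0.28. In these 3 genes the groups did not overlap, brimonidine 5 was not the highest of its group, and control 1 rather than control 3 was the lowest control. Nr4a3 and the neuronal factor Npas4 fell by 1.79 and 1.35, and Dusp1, a phosphatase that ends MAP kinase signals, was at 25.4, 38.7 and 54.8 FPKM in the controls and 12.5 to 21.9 with a median of 18.8 in the brimonidine group. Control 3, not control 2, was the highest library for Dusp1. Other members were not called. Junb, at 54.9, 26.9 and 85.5 FPKM in the controls, had a log2 fold change of -0.01 ± 0.28, and Egr1, Jun and Btg2 had -0.47, -0.42 and -0.18. Without control 2, Nr4a1, Nr4a2, Fos and Dusp1 were called, at -1.21, -1.48, -1.13 and -1.05, and Nr4a3 and Npas4 were no longer tested. Junb and Egr1 were then at -0.45 and -0.24, and the list median was -0.22.

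The start regions of 5 of the 6 lower immediate early genes are shown because genes of this kind are known targets of CREB, the factor that cyclic AMP activates. Each run holds 300 bases, from 250 before to 50 after the RefSeq start (GRCm38.p6), 5′ to 3′ on the gene's strand, and capitals mark the half-sites TGACG and CGTCA, which are each other's reverse complement.
Nr4a1, chr15:101266596-101266895, plus strand: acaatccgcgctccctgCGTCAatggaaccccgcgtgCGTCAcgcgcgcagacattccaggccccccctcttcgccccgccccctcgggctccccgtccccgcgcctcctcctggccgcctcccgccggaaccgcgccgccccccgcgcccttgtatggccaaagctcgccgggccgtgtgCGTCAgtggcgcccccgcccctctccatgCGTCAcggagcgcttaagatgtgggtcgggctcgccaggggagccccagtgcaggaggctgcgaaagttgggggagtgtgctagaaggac
Nr4a2, chr2:57123954-57124253, minus strand: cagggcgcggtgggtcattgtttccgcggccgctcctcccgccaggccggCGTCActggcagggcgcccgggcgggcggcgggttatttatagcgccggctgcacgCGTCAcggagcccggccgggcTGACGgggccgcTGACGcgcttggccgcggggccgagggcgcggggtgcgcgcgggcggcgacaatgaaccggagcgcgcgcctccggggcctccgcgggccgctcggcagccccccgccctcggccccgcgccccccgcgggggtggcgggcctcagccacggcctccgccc
Nr4a3, chr4:48045055-48045354, plus strand: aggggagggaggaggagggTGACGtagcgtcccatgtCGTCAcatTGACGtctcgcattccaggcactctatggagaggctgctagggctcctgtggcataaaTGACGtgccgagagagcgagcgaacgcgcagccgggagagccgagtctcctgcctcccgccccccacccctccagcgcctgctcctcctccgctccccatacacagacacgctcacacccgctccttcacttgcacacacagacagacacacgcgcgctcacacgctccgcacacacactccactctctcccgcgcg
Fos, chr12:85473640-85473939, plus strand: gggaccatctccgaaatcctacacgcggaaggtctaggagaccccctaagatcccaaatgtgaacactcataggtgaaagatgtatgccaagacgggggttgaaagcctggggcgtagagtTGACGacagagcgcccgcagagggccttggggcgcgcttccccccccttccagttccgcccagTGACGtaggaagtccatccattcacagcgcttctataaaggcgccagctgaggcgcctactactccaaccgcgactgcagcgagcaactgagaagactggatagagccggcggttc
Dusp1, chr17:26508423-26508722, minus strand: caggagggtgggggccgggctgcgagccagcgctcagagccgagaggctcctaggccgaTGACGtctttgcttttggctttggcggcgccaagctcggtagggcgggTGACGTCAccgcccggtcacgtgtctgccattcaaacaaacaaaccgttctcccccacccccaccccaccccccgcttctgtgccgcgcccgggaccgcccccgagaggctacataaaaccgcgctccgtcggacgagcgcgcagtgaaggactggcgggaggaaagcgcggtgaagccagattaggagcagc
The 3 Nr4a windows held 4 half-sites each, Fos and Npas4 held 2 and Dusp1 held 3, of which 2 overlap in the full palindrome TGACGTCA. Of the 10 immediate early genes that were not called and had a window, 1 held at least 2 half-sites and 5 held 0. The first of these was Btg2, which held 2 half-sites in the full palindrome. Among all 32851 windows, 5.01% held at least 2 half-sites, 0.231% at least 4, and 1.79% the palindrome. These matches describe letters in a window and were not tested for binding. The part of CREB in the lower levels was not tested either. Nr4a3 and Npas4 passed the filter through the controls alone, so their place among the lower genes is a description.

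Among 14 glucocorticoid-responsive genes, Fkbp5 was called higher and Fam107a and Dusp1 lower, with a median of -0.30. Fkbp5, a co-chaperone of the glucocorticoid receptor (chr17:28399095-28517524, mm10), was at 12, 5.42 and 10.7 FPKM in controls 1, 2 and 3 and at 16.3 to 24.9 with a median of 20.2 in the brimonidine group, a difference of 1.05 ± 0.21 (adjusted p = 0.00659, limma). Every brimonidine library lay above every control, and without control 2 the difference was 0.74, which missed the fold at an adjusted p of 0.00977 (limma). Other targets of the receptor differed in sign. Zbtb16, a zinc finger factor, had a difference of 0.54 with an adjusted p of 0.0317 (limma). Tsc22d3, also called GILZ, was at 38.4, 35.7 and 43.7 FPKM in the controls and 20.9 to 33.4 with a median of 28.2 in the brimonidine group, with a difference of -0.49, and Ddit4 and Per1 had differences of -0.77 and -0.79. All 3 had an adjusted p under 0.05, at 0.0351, 0.0347 and 0.011 in limma, and missed the fold. Fam107a, which astrocytes express strongly, was at 48.2, 97 and 63.1 FPKM in the controls and 26.6 to 36.1 with a median of 28.5 in the brimonidine group. Of 12 output genes of the circadian clock, 0 were called by limma or limma-voom, 5 had an unadjusted and 2 an adjusted p under 0.05 in limma. Over all genes tested, 35.6% had an unadjusted p under 0.05. Of 5 activators and antiphase genes of the clock, 0 were called by limma and 2 by limma-voom. The 3 with an unadjusted p under 0.05 were Arntl, Npas2 and Clock, at -0.77, -0.65 and -0.57, and each also passed the adjustment in limma. Without control 2 they were at -0.46, -0.44 and -0.32 and none passed it.

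The 27 higher genes included 13 that code for protein, 4 immunoglobulin variable and 3 joining segments, 3 small nucleolar RNAs, 1 small nuclear RNA, 2 microRNA genes and 1 long intergenic RNA. Several of the coding genes belong to monocytes, macrophages and granulocytes. F13a1, the coagulation factor XIII subunit made by macrophages and platelets, was at 56.9, 17.4 and 34.4 FPKM in the controls and 59.9 to 78.1 with a median of 68.8 in the brimonidine group, a log2 fold change of 1.07 ± 0.26. Chil3, a chitinase-like protein of neutrophil precursors and macrophages, was at 1139, 400.4 and 1471 FPKM in the controls and 1705 to 2303 with a median of 1947 in the brimonidine group, a difference of 1.15 ± 0.35 (adjusted p = 0.0496, limma). The brimonidine libraries were above all controls for both genes, and control 2 was the lowest of the controls. Ms4a4a and Ms4a8a, tetraspan proteins of macrophages, rose by 1.19 and 1.11, the apolipoprotein B receptor Apobr by 1.10 and the monocyte surface protein Ly6i by 1.11. Without control 2 these 6 differences were 0.64, 0.59, 0.61, 0.84, 0.56 and 0.61 in the order given, and none reached 1. Of the 16 genes in the monocyte and macrophage list, 0 were called by limma and 1 by limma-voom. In limma 6 had an unadjusted p under 0.05, against 35.6% of all genes tested. An adjusted p under 0.05 with a positive difference was reached by 4, against 3.47% of all genes. Those 4 were Adgre1, Ccr2, Csf1r and Cd163 at 0.32, 0.99, 0.29 and 0.29. Without control 2, Ccr2 was at 0.49, and Csf1r at 0.28 no longer passed the adjustment.

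Other granulocyte genes were not called. Of 14 specific granule genes, Chil3 was the 1 called, and S100a9, a calcium-binding protein of neutrophils, was at 18564, 3887 and 21797 FPKM in the controls and 16574 to 27116 with a median of 18397 in the brimonidine group (adjusted p = 0.475, limma). The median of the list was 0.77 with all controls and 0.14 without control 2, and its sum was 45321, 10066 and 48409 FPKM in controls 1, 2 and 3. Also called higher were 3 interferon-induced genes. Gbp2, a guanylate-binding protein, was at 34.3, 9.53 and 21.3 FPKM in the controls and 28.5 to 52.3 with a median of 39.5 in the brimonidine group. The chemokine Cxcl9 was at 7.71, 2.14 and 4.82 FPKM in the controls and 7.08 to 11.7 with a median of 10.5 in the brimonidine group. Ido1, which degrades tryptophan, was at 5.42, 0.253 and 0.613 FPKM in the controls and 3.36 to 10.3 with a median of 6.5 in the brimonidine group. For all 3, control 1 lay inside the brimonidine range and controls 2 and 3 below it, and without control 2 the differences of Gbp2, Cxcl9 and Ido1 were 0.53, 0.66 and 1.14, none of them called. Of 24 genes in the interferon-stimulated list Gbp2 was the 1 called, 6 had an adjusted p under 0.05 in limma, all with positive differences, and the median was 0.34.

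Immunoglobulin segments were spread widely among the animals. Of 187 variable genes tested, 4 were called higher, and the median was 0.86, or 0.12 without control 2. Igkv8-21 was at 14.7, 14.3 and 11.9 FPKM in the controls and 20.1 to 112 with a median of 44.1 in the brimonidine group, a difference of 1.70 ± 0.48 (adjusted p = 0.0385, limma). Ighv1-53, Ighv5-9-1 and Igkv4-50 were called at 1.73 ± 0.40, 2.07 ± 0.58 and 2.33 ± 0.71, and at least 1 control lay inside the brimonidine range of each. Iglj3p, a joining segment of the lambda locus, was at 9.1, 6.93 and 8.18 FPKM in the controls and 15.9 to 36.4 with a median of 19 in the brimonidine group, with the smallest p of the higher genes (1.34 ± 0.22, adjusted p = 0.00273, limma), and the kappa segments Igkj3 and Igkj5 were called at 1.04 and 1.08. None of the 4 variable genes was called without control 2, and there Igkv4-50, Igkj3 and Igkj5 had differences of 1.28, 0.51 and 0.55, the joining segments not being called either. Segments of this family share sequence, so reads may be divided among near-identical copies.

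For muscle genes, leaving out control 2 raised the count of higher genes. Myh2, a myosin of fast muscle fibres, was at 2.1, 4.84 and 2.66 FPKM in the controls and 5 to 18.8 with a median of 7.86 in the brimonidine group, a log2 fold change of 1.25 ± 0.34. Hspb7, a small heat shock protein of muscle, was at 2.15, 4.14 and 2.25 FPKM in the controls and 5.83 to 11.6 with a median of 8.41 in the brimonidine group, a difference of 1.26 ± 0.21 (adjusted p = 0.00307, limma). For both genes all 7 brimonidine libraries lay above all 3 controls, and control 2 was the highest control. Of the 23 genes in the skeletal muscle list, Myh2 was the 1 called with all libraries and 5 were called without control 2, when Myh1, Acta1, Atp2a1 and Ckm were added at 1.67, 1.42, 1.55 and 1.27. Acta1, skeletal actin, was at 68.7, 189.6 and 83.1 FPKM in the controls and 121 to 318 with a median of 201 in the brimonidine group, so that control 2 lay inside the brimonidine range and controls 1 and 3 below it. The list summed to 393, 1077 and 447 FPKM in the controls and 549.7 to 1307 in the brimonidine group, and the part of the amount of muscle in a sample was not tested.

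The called microRNA genes rested on few fragments. There were 11 lower and 2 higher ones, the deposited values belong to the hairpin genes in mRNA libraries, and 10 of the 13 had at most 10 fragments in every library. Mature forms of 5 of them are shown, as RefSeq gives them (GRCm38.p6), with the seed, bases 2 to 8, in capitals. The let-7 forms share 1 seed and the others have seeds of their own.
mmu-miR-3093-5p: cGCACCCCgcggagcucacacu
mmu-miR-3093-3p: uGUGGACAccgugggagguugg
mmu-let-7b-5p: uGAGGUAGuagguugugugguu
mmu-let-7a-5p: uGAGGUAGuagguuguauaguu
mmu-miR-132-3p: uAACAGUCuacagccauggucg
mmu-miR-23a-3p: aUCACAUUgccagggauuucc
Mir3093 had the smallest p of all lower genes (adjusted p = 0.000228, limma), on 3, 4 and 3 fragments in controls 1, 2 and 3 and 0 in each brimonidine library. Mirlet7b had the most fragments, 26, 37 and 17 in the controls and 4 to 13 in the brimonidine group, which is 21.2, 28.7 and 12.4 FPKM against 2.83 to 8.52 with a median of 6.53. Mirlet7a-1 had 4, 10 and 2 fragments in the controls and 0 to 3 in the brimonidine group, and Mir132, which neurons express under CREB control, had 3, 4 and 2 against 0 to 2. In the other direction Mir23a and Mir143 had 0 fragments in every control and were above 0 in 6 of 7 brimonidine libraries each, with at most 3 and 5 fragments. No fold is given where a group is at 0. Snora41 and Gm22362, both among the 5 higher genes that were called again without control 2, had at most 1 and 2 fragments in any control.

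Many lists gave no call by limma in either direction. Over these 32 lists, 118 of 546 genes tested, or 21.6%, had an unadjusted p under 0.05, against 35.6% of all genes tested, and limma-voom called 5. Besides those already named, they were melanocytes, osteoblasts and osteocytes, osteoclasts, cartilage, collagens, endothelial cells, adipocytes, B-cell precursors, mature B cells, plasma cells, early and late neutrophil genes, T and NK cells, erythroid cells, megakaryocytes, mast cells with other granulocytes, MHC class II, inflammatory cytokines, complement, p53 targets, chaperones, antioxidant genes, mitochondrial and ribosomal genes, and the cell cycle. The cell cycle list was one of these, with all 29 log2 fold changes above 0 and a median of 0.55. In limma 26 of its genes had an unadjusted p under 0.05. An adjusted p under 0.05 was reached by 10, where 3.47% of all genes were higher by that measure. Mki67, a marker of cycling cells, was at 67, 39.4 and 54 FPKM in the controls and 66.4 to 94.8 with a median of 76.9 in the brimonidine group, a log2 fold change of 0.57 ± 0.16. Control 1 lay inside the brimonidine range and controls 2 and 3 below it. The medians of the list against controls 1, 2 and 3 were 0.06, 1.08 and 0.48. Without control 2 the median was 0.27 and Mki67 was at 0.37 with an adjusted p of 0.109 (limma).

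The study singled out 9 genes between its brimonidine and NE groups, which is another contrast than the one with control used here. It also reports that noise raised Il1b, Il2ra and the immunoglobulin genes and lowered Dbp. In addition it gives qPCR results for its differentially expressed genes. By the rule used here limma called 0 of the 9 between brimonidine and control, with 3 at an unadjusted p under 0.05, against 35.6% of all genes tested. Limma-voom called 0 of the 7 that it could fit. Il1b, the inflammatory cytokine, was at 33.8, 19.4 and 183 FPKM in controls 1, 2 and 3 and at 24.3 to 58.1 with a median of 39.1 in the brimonidine group, a difference of -0.34 ± 0.55 (adjusted p = 0.683, limma). Of the 10 libraries control 3 was the highest and control 2 the lowest. Il2ra, a subunit of the interleukin 2 receptor, was at 15.2, 1.91 and 20.3 FPKM in the controls and 7.69 to 14.1 with a median of 12.5 in the brimonidine group, where control 2 again was the lowest and control 3 the highest of the 10. Olfm4, a glycoprotein of neutrophil granules, was at 32.6, 18.7 and 30.6 FPKM in the controls and 33.4 to 47.5 with a median of 44.8 in the brimonidine group, and its difference of 0.67 ± 0.16 had an adjusted p of 0.0211 (limma) but missed the fold. Mmp8, the neutrophil collagenase, was at 367, 95.6 and 354 FPKM in the controls and 382 to 517 with a median of 472 in the brimonidine group, with a difference of 0.97 ± 0.35 (adjusted p = 0.083, limma; two-sided exact permutation p = 0.00833). For both genes all brimonidine libraries were above all controls. Without control 2 the differences of Olfm4 and Mmp8 were 0.43 and 0.33, with adjusted p of 0.0501 and 0.141 (limma), and that of Il1b was -0.999. Dbp and Tef, transcription factors under the circadian clock, had log2 fold changes of 0.17 ± 0.21 and -0.52 ± 0.18, and Ighv1-52, Igkv9-120 and Igkv12-41 had 1.16 ± 0.69, 0.12 ± 0.30 and 0.49 ± 0.55, with adjusted p from 0.0743 to 0.794 over these 5 genes in limma. Without control 2 these 5 differences were 0.08, -0.28, -0.04, -0.03 and -0.32 in the same order.

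**Figure D5:**
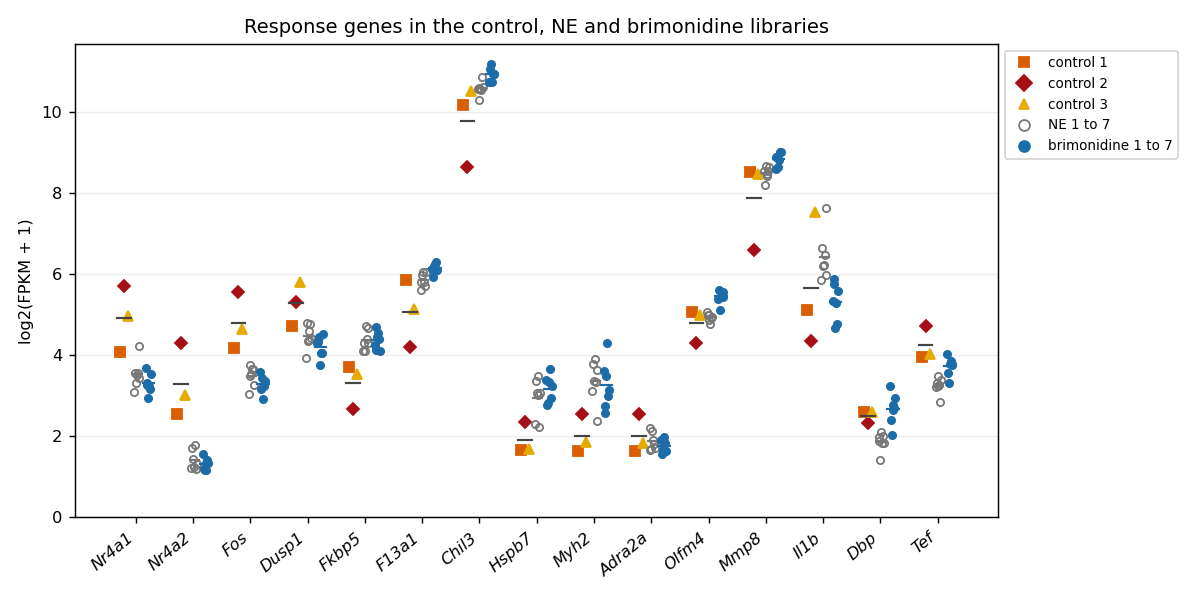
Log2(FPKM + 1) of 15 genes in controls 1, 2 and 3 (separate symbols), the 7 NE libraries (open circles) and the 7 brimonidine libraries (filled circles), with short lines at the group means. Nr4a1, Nr4a2 and Fos are lower than every control in the brimonidine libraries, Fkbp5 and Hspb7 are higher than every control, and for Olfm4 the brimonidine libraries lie above the NE libraries.

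The NE group, which had noise without the drug, shares the 3 controls with this comparison, so its values are given beside those of the brimonidine group and no likeness was tested. NE was lower than control for 875 of 15950 genes, or 5.49%, and higher for 43, or 0.27%. For the 886 lower genes the median log2 fold change was -1.55 in the brimonidine group and -1.53 in the NE group, and for the 27 higher genes it was 1.18 and 1.31, the latter over the 25 tested in NE. Cbln3 was at 0.131 to 3.16 FPKM in the NE libraries, with a log2 fold change of -5.21 from control against -5.04 in the brimonidine group. Snap25 had -2.41 and -2.56, Fos -1.31 and -1.51, Fkbp5 1.06 and 1.05, and Adra2a -0.14 and -0.24 in NE and brimonidine.

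The direct test between the brimonidine and NE libraries, which does not use the controls, covered 572 of the 913 called genes, since the others were below the filter in these 14 libraries. By limma 0 of them had an adjusted p under 0.05, and 14 had an unadjusted p under 0.05, against 5.77% of all 15707 genes in that fit. The largest difference among them was 0.83 on the log2 scale, at Snora41. Fos differed by -0.20 ± 0.11 (SE), Nr4a1 by -0.22 ± 0.15, Dusp1 by -0.26 ± 0.14, F13a1 by 0.28 ± 0.08 and Chil3 by 0.35 ± 0.10. Over all genes, Olfm4 was the 1 with an adjusted p under 0.05 in this test, or 0.00637%, at 0.52 ± 0.07 (adjusted p = 0.043, limma), with 26.1 to 32.3 FPKM in NE against 33.4 to 47.5 in the brimonidine group. Of the other genes the study singled out, Il1b, Il2ra, Ighv1-52, Igkv9-120 and Igkv12-41 differed by -1.11, -0.63, -1.64, -1.08 and -1.29 (brimonidine minus NE). Dbp, Tef and Mmp8 differed by 0.81, 0.48 and 0.34. The unadjusted p of these genes ran from 5.26e-05 to 0.00449 in limma, and each sign was the one the study describes. None of these differences passed the adjustment, and the study chose the genes from these same libraries.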

How the data were processed

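Cochlear RNA of single mice was sequenced as mRNA libraries made with a stranded kit. The deposited table holds FPKM per gene, which the authors made from reads on mm10, and the submitters' processing notes name Trimmomatic, HISAT2, HTSeq and Cufflinks. The strand setting and annotation version are not given in the sources used here. Members and gene lists were chosen with earlier results of these data known. Values were taken as log2(FPKM + 1), genes at 1 FPKM or more in at least 3 of the 10 libraries were kept, and limma 3.58.1 in R 4.3.3 (lmFit, eBayes with a trend) compared groups without covariates, after a check on simulated data. Genes with an adjusted p under 0.05 and a difference of at least 1 count as called. Genes were named by smallest p and by distance from the nearest control (10 each per direction), from fixed lists, for the alpha2 receptors and for those singled out by the study; others named were chosen after their values were seen, and some list members are not reported here. Fragments were recovered from the FPKM steps for 93.1% of genes above 0, within 0.05 of a whole number, and used for limma-voom. Replicates share no stated culture or batch, and each was 1 mouse.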

Additional observations from a re-analysis of the deposited data

Results flagged for a closer look

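Among the 7 brimonidine libraries, the gap between the highest or lowest library and its neighbour was divided by the group's range of log2(FPKM + 1), for each of the genes named above, and ratios above Dixon's 95% critical value for 7 values were noted. Chance gives about 1 such group in 20. Brimonidine 5 was the highest library in 46 of 55 noted genes, all of them called lower than control. The ratios were as follows for the lower genes with the smallest p, Lhx1os (0.814), Barhl2 (0.892), Tagln3 (0.773), Epha8 (0.883), Car4 (0.743), Jph4 (0.829), Scn2a (0.727), Gria4 (0.823), Cplx2 (0.733), Gria2 (0.696), Slc1a3 (0.745), Gria1 (0.701), Neurod1 (0.886), Aldoc (0.582), Gabrd (0.908) and Adcy1 (0.785). Further genes in the order of their p were Lhx1 (0.793), En2 (0.926), Rbfox3 (0.747), Gad1 (0.835), Cacna1a (0.768), Grin2c (0.899), Cbln1 (0.832), Slc1a6 (0.825), Zic1 (0.784), Grm4 (0.853), Nptx1 (0.891), Gabra6 (0.866), Cnpy1 (0.86), Slc32a1 (0.602), Syp (0.599) and Rnf112 (0.85). The remaining ones were Snap25 (0.68), Kcnj9 (0.779), Cbln3 (0.883), Car8 (0.704), Calb1 (0.789), Gnao1 (0.769), Vamp2 (0.585), Dlg4 (0.763), Pcp2 (0.778), Prkar1b (0.642), Itpr1 (0.577), Kcnj3 (0.78), Ntrk3 (0.587) and Gls2 (0.573). The other 9 were Mir132 (brimonidine 3 highest, 1), Ms4a8a (brimonidine 3 highest, 0.62), Cxcl9 (brimonidine 7 lowest, 0.705), Olfm4 (brimonidine 3 lowest, 0.581), Igkj5 (brimonidine 3 lowest, 0.583), Cd163 (brimonidine 2 lowest, 0.57), Egr1 (brimonidine 1 highest, 0.642), S100b (brimonidine 2 highest, 0.636) and Otos (brimonidine 6 lowest, 0.607). The part of the hindbrain markers in the position of brimonidine 5 was not tested, and their sum in that library is given with the library values.

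Olfm4 was the gene with an adjusted p under 0.05 between brimonidine and NE, with a difference of 0.52 on the log2 scale. All 7 brimonidine libraries lay above controls 1, 2 and 3 for it.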

How the results depend on the processing

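The 27 higher and 886 lower genes were counted again under each alternative. Higher genes numbered 66 with a pseudocount of 0.1, 9 without the filter on low values, 42 with median-ratio scaling, 51 with quantile normalization, 112 with array weights, 2 with the replicate number as a block, 47 with limma-voom on recovered fragments and 553 with no minimum fold change, and 12 to 180 with 1 library left out. Lower genes numbered 234 with the replicate block, 325 without control 2 and brimonidine 5 together, 1965 with no minimum fold change and 450 to 922 with 1 library left out, the 450 being without control 2. With all other alternatives both counts stayed within 1.5 times. The causes were not tested. The voom fit and the joint omission were added after the data had been seen. The replicate numbers are shared only as numbers, since deviations of same-numbered libraries correlated at -0.14, -0.20 and 0.08. Of 102 called genes named in the text, 0 changed sign under any alternative, and 61 of the 92 that could be tested without control 2 were called again. Among genes that were not called, signs turned as follows. With array weights, the sign turned for Gria3 (0.033), Ighv1-52 (-0.13), Gjb6 (0.019), S100b (0.37), S100a9 (-0.18), Kcne1 (0.062), Igkv12-41 (-1.14), Kcnq1 (0.043), Il2ra (-0.72), Otof (0.34) and Coch (0.0074). With quantile normalization, the sign turned for Kcnq1 (0.054), Otof (0.11) and Otos (-0.16). With median-ratio scaling, the sign turned for Junb (0.054). With the replicate number as a block, the sign turned for Junb (0.14). Without control 2 and brimonidine 5 together, the sign turned for Gjb6 (0.083), Glul (0.018), Adra2a (0.0046), Gjb2 (0.17), S100b (0.18), S100a9 (-0.030), Kcne1 (0.22), Igkv12-41 (-0.30), Kcnq1 (0.15), Il2ra (-0.55), Otof (0.29), Coch (0.19) and Igkv9-120 (-0.090). With 1 library left out at a time, values of both signs were met for Ighv1-52 (-0.044 to 1.81), Gjb6 (-0.61 to 0.10), Glul (-0.39 to 0.048), Adra2a (-0.43 to 0.040), Gjb2 (-0.71 to 0.18), S100b (-0.76 to 0.18), S100a9 (-0.058 to 1.19), Kcne1 (-0.55 to 0.20), Igkv12-41 (-0.32 to 1.42), Kcnq1 (-0.42 to 0.17), Il2ra (-0.54 to 0.90), Il1b (-0.999 to 0.58), Otof (-0.33 to 0.30), Coch (-0.39 to 0.22), Igkv9-120 (-0.030 to 0.25), Slc26a4 (-0.30 to 0.35), Otos (-0.45 to 0.69) and Junb (-0.45 to 0.36). The 3 controls limit the precision, and with 1 library per mouse their spread cannot be divided into animal and dissection.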

Other observations

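Genes of motile cilia, which line the middle ear and the ependyma of the brain, had their highest sum in control 3 rather than in control 2. This list of 22 tested genes was put together after its values were seen and carries no test of its own. The median log2 fold change was -0.67, and against controls 1, 2 and 3 it was -0.45, -0.43 and -1.34. The sum over the list was 139, 125 and 266 FPKM in the controls and 57.2 to 137 in the brimonidine group. Odf3b, a protein of the ciliary axoneme, was at 5.59, 5.77 and 10.9 FPKM in the controls and 1.35 to 4.81 with a median of 3.58 in the brimonidine group and was called lower at -1.05 ± 0.31, and Nme9 and 1700016K19Rik were the other 2 called. Without control 2 these 3 missed the adjusted p, and Capsl, Tppp3 and Dynlrb2 were called lower instead, at -1.38, -1.07 and -1.33.

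Erythroid genes varied among the controls. The list summed to 3001, 11071 and 1863 FPKM in controls 1, 2 and 3 and 2937 to 6088 in the brimonidine group. Specific granule genes of neutrophils were lowest in control 2, at 10066 FPKM, where erythroid genes were highest. The list median of the erythroid genes was 0.07 with all controls and 0.70 without control 2. In a further list of 19 muscle genes, chosen after the values were seen, 1 gene was called higher with all libraries and 8 without control 2.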
